A study of Mus musculus with 3 samples.

Results

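The PIM, Polo-like, SGK and Tribbles kinase genes are 9 genes of kinases and pseudokinases that cells are known to control largely through the amount of their messenger RNA and protein. They were taken by gene symbol (Pim1, Pim2, Pim3, Plk2, Plk3, Sgk1, Trib1, Trib2 and Trib3), all 9 were found in the annotation, and they stand among 22015 nuclear protein-coding genes. The RNA came from the cytosol of macrophages grown from the bone marrow of C57BL/6J mice and exposed to lipid A (100 ng/ml, 25 minutes), the part of bacterial lipopolysaccharide that the receptor TLR4 recognises. The 3 libraries, biological replicates 1 to 3, form a single group in which every culture carried the same stimulus. The labels give neither the age nor the sex of the mice and tie all 3 libraries to 1 donor record, so the spread between them may be partly technical. Unstimulated cells were not analysed here, and a level after 25 minutes does not show whether a gene had changed.

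PIM kinases have a catalytic domain and no regulatory domain, and are induced by cytokine receptors through JAK kinases and STAT factors and by NF-κB. They phosphorylate proteins of survival and growth such as BAD and the cell cycle inhibitor p27. PLK2 and PLK3 are Polo-like kinases that act outside mitosis, in centriole duplication and in stress responses, and were first described as products of early response genes. SGK1 is the serum- and glucocorticoid-induced kinase, switched on by PDK1 and the mTORC2 complex, with NEDD4L, NDRG1 and FOXO3 among its substrates. Tribbles proteins are pseudokinases: they hold a target protein next to the ubiquitin ligase COP1, and TRIB1 and TRIB2 direct the transcription factor C/EBPα to degradation in this way. TRIB3 is a target of the stress factors ATF4 and CHOP and binds AKT. In the mm10 annotation, Pim1 (ENSMUSG00000024014.8) at chr17:29490753-29496112 on the + strand, Pim2 (ENSMUSG00000031155.16) at chrX:7878262-7883432 on the + strand and Pim3 (ENSMUSG00000035828.11) at chr15:88862186-88865726 on the + strand are the PIM genes. The PLK genes are Plk2 (ENSMUSG00000021701.8) at chr13:110395046-110400844 on the + strand and Plk3 (ENSMUSG00000028680.14) at chr4:117128655-117133963 on the - strand, and Sgk1 (ENSMUSG00000019970.15) at chr10:21882184-21999903 on the + strand is the SGK gene. The Tribbles genes are Trib1 (ENSMUSG00000032501.9) at chr15:59648350-59657099 on the + strand, Trib2 (ENSMUSG00000020601.8) at chr12:15791727-15816922 on the - strand and Trib3 (ENSMUSG00000032715.9) at chr2:152337422-152344032 on the - strand.

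The libraries held 53055764, 43620362 and 38623777 expected counts in the order of the replicates, so that 3 counts amount to 0.0566, 0.0689 and 0.0777 CPM, the count relative to the size of its library. All 8 macrophage markers were at or above 1 TPM (the deposited unit, scaled to transcript length and library) in every library, with a median of 175 ± 27.0 TPM (SD, n = 3), while no marker of B cells, T cells, mast cells, red cells or stromal cells reached that level in all libraries. Of 5 neutrophil markers, S100a8 (9.60, 14.9 and 12.4 TPM in replicates 1 to 3) and Ngp (2.69, 6.21 and 2.10 TPM) did, and all 5 were highest in replicate 2. Nuclear protein-coding genes took 22.7, 22.9 and 29.8% of the TPM, and the median detected gene was 0.41 higher on the log2 TPM scale in replicate 3 than in replicate 1 and 0.34 higher in replicate 3 than in replicate 2. TPM is used below to set genes side by side, and CPM with TMM factors to set libraries side by side.

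Plk2 and Pim1 were the most abundant of the 9 genes, Sgk1, Pim3 and Trib1 followed, and the remaining 4 genes lay below 1 TPM in every library. When TPM was rescaled to the nuclear protein-coding genes, Plk3 (2.56 ± 0.13), Pim2 (1.81 ± 0.15) and Trib3 (1.49 ± 0.43, SD, n = 3) were at 1 or more in every library. In bulk RNA such as this, fewer cells that express a gene and less RNA per cell cannot be told apart. Of the 9 kinase genes, 5 (55.6%) were detected at 1 TPM or more in all libraries, against 9084 of 22015 nuclear protein-coding genes (41.3%). The median over the 9 genes was 6.72 ± 2.09 TPM (SD, n = 3), against 7.78 ± 1.27 TPM over the detected protein-coding genes and 0.16 ± 0.026 TPM over all of them. For 2 other groups of early genes, the median was 4.45 ± 1.20 TPM over 11 dual-specificity phosphatases of the MAP kinases, of which 7 were detected, and 41.3 ± 4.99 TPM over 10 Ier, Btg and Gadd45 genes, of which 9 were detected. The smallest two-sided p that an exact sign-flip test over 3 libraries can give is 0.25, so levels are ordered by their values and spread alone.

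Plk2, the serum-inducible Polo-like kinase, had 59.2, 65.6 and 85.7 TPM in replicates 1 to 3 (70.2 ± 13.9, SD, n = 3), resting on 15589, 13236 and 12900 expected counts. Its mean was above that of 97.6% of nuclear protein-coding genes. Pim1 had 53.5, 59.8 and 90.2 TPM (67.8 ± 19.6), from 12392, 10445 and 11520 counts. The order of the pair changed between libraries: the log2 ratio of Plk2 to Pim1 was 0.15 in replicate 1, 0.13 in replicate 2 and -0.07 in replicate 3, so their levels could not be told apart over the replicates. Within replicate 3 the deposited credibility bounds of the quantification did not overlap (82.8 to 85.8 TPM for Plk2 and 86.4 to 91.2 TPM for Pim1), and within replicates 1 and 2 they did not overlap either, with Plk2 above Pim1. These bounds leave out the difference between quantifications. Quantified without alignment and rescaled to the nuclear protein-coding genes, Pim1 (298 ± 32.9 TPM) stood above Plk2 (272 ± 17.5, SD, n = 3). The order of the pair thus depended on the quantification too.

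Sgk1 had 25.7, 18.9 and 46.2 TPM (30.3 ± 14.2, SD, n = 3) from 5910, 3325 and 5834 counts, and stood below Pim1 by 1.23 ± 0.38 on the log2 scale. Pim3, a close relative of Pim1, had 11.3, 10.5 and 16.0 TPM (12.6 ± 2.93) from 1850, 1553 and 1626 counts. Trib1, the Tribbles gene that tissue macrophages of the mouse are known to need, had 4.31, 8.01 and 7.84 TPM (6.72 ± 2.09) from 1795, 2523 and 1864 counts. Each of these steps down the order, from Pim1 to Sgk1, from Sgk1 to Pim3 and from Pim3 to Trib1, held in all 3 libraries with ranges that did not overlap. The step from Pim3 to Trib1 was the narrowest of them, with a log2 ratio of 1.40, 0.39 and 1.03 in replicates 1 to 3.

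The largest gap between neighbours of which both had counts in every library lay between Trib1 and Plk3, at 3.34 ± 0.40 on the log2 scale. Plk3, the stress-responsive relative of Plk2, had 0.55, 0.59 and 0.80 TPM from 122, 102 and 102 counts. The exact 95% Poisson interval of its count ran from 101 to 146 in replicate 1 and from 83.2 to 124 in replicates 2 and 3, which covers counting error only. Pim2, which is best known from lymphoid cells, had 0.38, 0.45 and 0.53 TPM from 71, 60 and 56 counts, below Plk3 in every library by 0.51 ± 0.10 on the log2 scale. Their credibility bounds overlapped in every library. For Pim2 they were 0.334 to 0.728, 0.379 to 0.742 and 0.453 to 0.991 TPM in replicates 1 to 3. For Plk3 they were 0.465 to 0.663, 0.486 to 0.718 and 0.659 to 0.971 TPM. Quantified without alignment and rescaled to the nuclear protein-coding genes, Pim2 had 2.71 ± 0.46 TPM and Plk3 2.62 ± 0.32 (SD, n = 3). This step thus depended on the quantification. Trib3 had 0.33, 0.44 and 0.32 TPM from 62, 62 and 34 counts, and its range overlapped that of Pim2. Trib2 had 2 counts in replicate 2 (0.01 TPM) and 0 in replicates 1 and 3, where 0 counts allow up to 0.0566 and 0.0777 CPM.

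Within a family the levels were far apart. Plk2 was higher than Plk3 by 6.76 ± 0.03 and Pim1 was higher than Pim2 by 7.20 ± 0.19 on the log2 TPM scale (SD, n = 3), in 3 of 3 libraries each. Of the related kinases outside the 9 genes, the mitotic kinase Plk1 had 0.64, 1.68 and 0.88 TPM, the centriole kinase Plk4 had 0.93, 1.75 and 1.22 TPM, and Plk5 had 0 in every library. Sgk3 had 9.11, 8.87 and 11.6 TPM and Sgk2 had 0 in every library. Stk40, a pseudokinase close to the Tribbles proteins, had 5.86, 6.45 and 8.64 TPM. Plk1 and Plk4 were both highest in replicate 2, where the neutrophil markers were highest too; whether these move for a common reason was not tested.

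**Figure D1:**
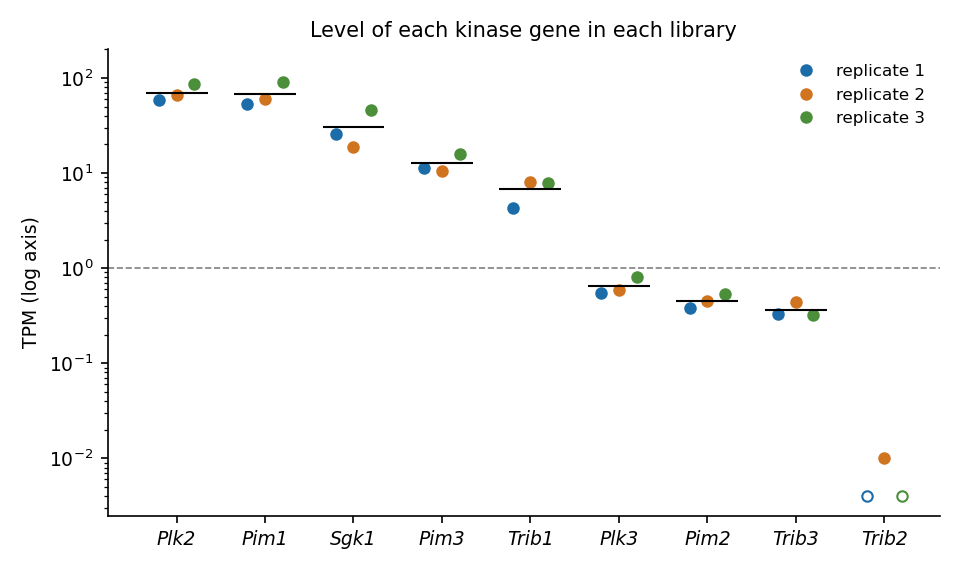
Level of each kinase gene in TPM on a log axis, 1 point per library and a black line at the mean of 3 libraries, with the dashed line at 1 TPM. Open points for Trib2 stand for 0 TPM and are drawn at the bottom of the axis. Plk2, Pim1, Sgk1, Pim3 and Trib1 lie above the dashed line in every library, and Plk3, Pim2, Trib3 and Trib2 lie below it in every library.

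Messengers of early response genes often carry AU-rich elements in the 3′ untranslated region, which ZFP36 proteins bind and which shorten the life of the RNA. The nonamer TTATTTATT was searched on the sense strand of the 3′ untranslated region of each gene's most abundant protein-coding transcript, in the GENCODE M21 transcripts of mm10. It was present in 3 of the 9 kinase genes, Pim1, Plk2 and Plk3, against 1458 of 20209 protein-coding genes (7.21%). Among detected genes it was present in 2 of the 5 kinase genes, against 612 of 8806 protein-coding genes (6.95%). The sites are shown because they lie in the most abundant PIM gene and in both PLK genes; capitals mark the nonamers, and coordinates are mm10.
Plk2, chr13:110400734-110400762, + strand: aataaactttTTATTTATTacagccccaa
Pim1, chr17:29495689-29495717, + strand: tttaatgtatTTATTTATTTATTTATTtg
Plk3, chr4:117128718-117128746, - strand: tggaccacttTTATTTATTaacagacatt
Plk3, chr4:117128700-117128728, - strand: taacagacatTTATTTATTgggatgtgag

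In Pim1 the capitals span 3 overlapping nonamers, which begin at positions 952, 956 and 960 of a 3′ untranslated region of 1365 bases. Plk2 had 1 nonamer at position 520 of 620, and Plk3 had 2, at positions 251 and 269 of 332. For the shorter pentamer ATTTA, Plk3 had 4 copies, or 12.0 per kilobase, and 0.625% of the detected genes had more per kilobase. Pim3 had 5 copies in 964 bases without a nonamer, Sgk1 had 3 in 1076, and Trib1 had 0 in 2398. Of the genes with a nonamer, Plk2 and Pim1 were the highest of the 9 and Plk3 was below 1 TPM. The 3′ end of Plk3 overlaps the gene Tctex1d4 on the other strand (17, 17 and 15 counts), and since the strandedness of the counting is not given in the sources used here, counts in this overlap are uncertain.

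RefSeq promoter windows (GRCm38.p6), of which the 250 bases before the annotated start were searched, matched 8 of the 9 genes, all but Trib1. Both strands were searched for the cAMP response element (TGACGTCA, and its core TGACG), the AP-1 site (TGACTCA or TGAGTCA), the κB consensus, the CArG box, the STAT site TTCNNNGAA, the TATA box TATAAA, the GC box GGGCGG and the E-box CACGTG. Windows with a full cAMP response element, with its core or with a κB match are shown for the PLK genes and Pim3; capitals mark the matches, and the core lies within the full element in both directions.
Plk2 promoter, chr13:110394794-110395043, + strand: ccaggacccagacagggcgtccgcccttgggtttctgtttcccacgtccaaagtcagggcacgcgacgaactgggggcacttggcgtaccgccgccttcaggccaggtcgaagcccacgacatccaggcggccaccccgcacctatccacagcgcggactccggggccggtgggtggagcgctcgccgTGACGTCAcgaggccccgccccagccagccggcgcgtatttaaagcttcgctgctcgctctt
Pim3 promoter, chr15:88861944-88862193, + strand: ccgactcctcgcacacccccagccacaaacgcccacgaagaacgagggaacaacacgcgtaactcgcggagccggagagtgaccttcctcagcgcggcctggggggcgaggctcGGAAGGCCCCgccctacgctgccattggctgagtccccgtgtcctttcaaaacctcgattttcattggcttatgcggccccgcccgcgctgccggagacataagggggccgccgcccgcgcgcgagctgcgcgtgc
Plk3 promoter, chr4:117133964-117134213, - strand: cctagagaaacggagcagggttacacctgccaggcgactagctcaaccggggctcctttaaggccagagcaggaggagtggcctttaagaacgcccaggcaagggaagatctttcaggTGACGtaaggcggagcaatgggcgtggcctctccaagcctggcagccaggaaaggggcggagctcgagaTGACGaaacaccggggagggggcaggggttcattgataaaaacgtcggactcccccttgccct

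Plk2 carried the full cAMP response element 62 bases before its start, a motif present in 1.55% of 32851 windows. The core was found at 2 places in Plk3, at 2 places in Trib3, within the full element of Plk2 and at 1 place before an Sgk1 start at 21978672, and in 17.8% of all windows. Pim3 had the κB match on the opposite strand, 136 bases before its start, as did 7.25% of windows somewhere in their 250 bases. The window of Pim1 that lies at the start of its main transcript held none of these apart from GC boxes and was 82.4% G or C, against a median of 52.4% over all windows. No AP-1 site or CArG box was found in any window of the 8 genes, motifs that 4.46% and 1.47% of all windows hold, which says only that these letters were not in these 250 bases.

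Over all 3 libraries, Sgk1, Trib1 and Trib3 varied most between replicates, and Plk2 varied by 0.12 at most on the log2 CPM scale. Over the 12744 genes that passed the count filter of edgeR, the common biological coefficient of variation was 15.2%, and 8 of the 9 kinase genes passed, all but Trib2. The median SD of log2 CPM was 0.139 over these 8 genes, against 0.127 over all genes tested. It was 0.099 over the detected protein-coding genes. Over the dual-specificity phosphatases that passed it was 0.269, and over the Ier, Btg and Gadd45 genes 0.302. The SD was 0.47 for Sgk1, higher than in 90.5% of genes, 0.38 for Trib1 (86.7%) and 0.36 for Trib3 (85.5%). The order of these 3 changed with the libraries used: the SDs of Sgk1, Trib1 and Trib3 were 0.67, 0.22 and 0.50 without replicate 1, 0.27, 0.32 and 0.32 without replicate 2 and 0.40, 0.53 and 0.18 without replicate 3. Over all 3 libraries the SD was 0.16 for Pim1, 0.12 for Pim3, 0.08 for Plk3, 0.06 for Plk2 and 0.03 for Pim2, the last from a mean of 62 counts and 0.15 in the alignment-free counts. Leaving out replicate 3 lowered the median SD of the kinase genes to 0.016, against 0.111 over all genes, since Pim1, Pim2, Pim3, Plk2 and Plk3 differed by at most 0.03 on the log2 scale between replicates 1 and 2.

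**Figure D2:**
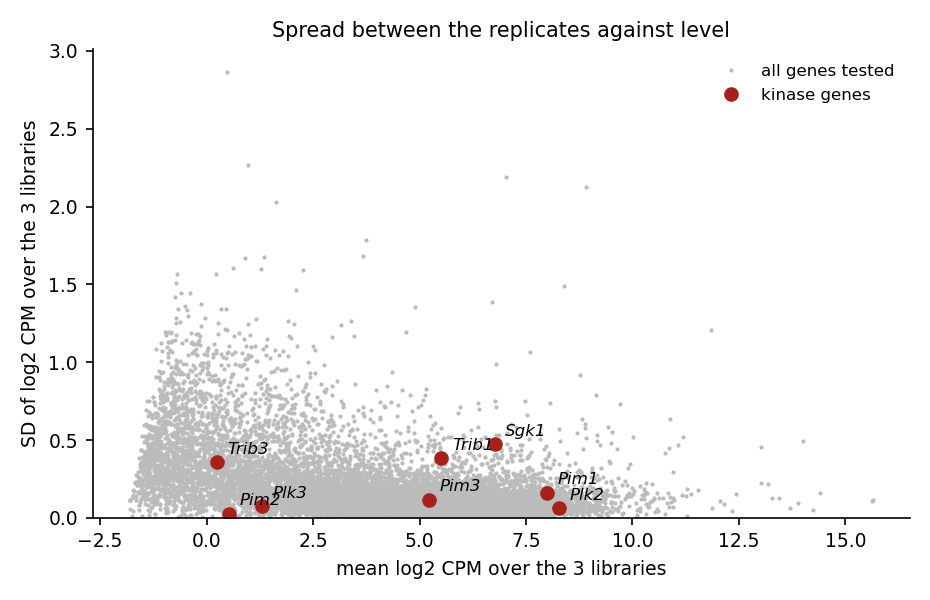
SD of log2 CPM over the 3 libraries against mean log2 CPM, for all genes tested in grey and the 8 kinase genes that passed the filter in red. Sgk1 (0.47) and Trib1 (0.38) are the highest red points, and Plk2 (0.06), Pim3 (0.12) and Pim1 (0.16) lie in the dense band near the median of 0.127.

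A difference of more than 2-fold between replicates, at a mean count of 100 or more, was found in 0 of the 6 kinase genes for each pair of libraries. The share over all 10345 genes at that count was 1.47% for replicate 2 over replicate 1, 0.512% for replicate 3 over replicate 1 and 2.82% for replicate 3 over replicate 2. Sgk1 came nearest, being 1.92-fold higher in replicate 3 than in replicate 2 (114, 76.9 and 147 TMM-scaled CPM in replicates 1 to 3); 0.967% of genes differed more in that direction. Trib1 was 1.69-fold higher in replicate 2 than in replicate 1 (34.5, 58.4 and 47.1 TMM-scaled CPM), and 2.32% of genes differed more in that direction. Plk2 had 299, 306 and 326 TMM-scaled CPM and Pim1 had 238, 242 and 291, so that replicate 3 was highest for both.

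The departures of Sgk1 and Trib1 from their means took different courses. Sgk1 lay at 0.06, -0.50 and 0.44 on the log2 CPM scale in replicates 1 to 3, low in replicate 2 and high in replicate 3. Trib1 lay at -0.40, 0.36 and 0.05, low in replicate 1. Among the genes given for scale, the inhibitor of NF-κB Nfkbia (-0.13, -0.45 and 0.59) and the cytokine gene Tnf (-0.27, -0.39 and 0.66) were lowest in replicate 2 and highest in replicate 3, as Sgk1 was. Ppp1r15a, whose product GADD34 ends the integrated stress response, followed the same order with 0.02, -0.61 and 0.58, and had 185, 106 and 369 TPM. Among the other listed genes of that response, Ddit4 (0.18, -0.50 and 0.32) and Eif2ak2 (0.05, -0.20 and 0.15) had this order too. With smaller departures, so did Eif2ak1 (-0.05, -0.07 and 0.13) and Sesn2 (0.003, -0.05 and 0.05). Others did not, such as Atf4 (-0.003, 0.19 and -0.19) and Ddit3 (0.13, -0.02 and -0.11).

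In the order of Trib1, with replicate 1 lowest and replicate 2 highest, stood Fos (-0.14, 0.23 and -0.10) and the C/EBP family gene Cebpb (-0.33, 0.29 and 0.04). Dusp5 (-0.51, 0.50 and 0.01) and Dusp6 (-0.41, 0.43 and -0.02), phosphatases that act on ERK, did so as well, a pair named after their values were seen. Of the other listed phosphatases of the MAP kinases, Dusp8 (-0.31, 0.37 and -0.06) had this order too. Others did not, such as Dusp7 (0.12, -0.11 and -0.01), Dusp4 (-0.20, 0.01 and 0.19) and Dusp2 (-0.23, -0.35 and 0.58), the last having the order of Sgk1. Zfp36 (-0.09, -0.05 and 0.14) and Egr1 (-0.59, 0.20 and 0.39) had the order of Pim1 (-0.10, -0.08 and 0.19). With 3 libraries these are descriptions of order, and what the libraries share beyond depth was not tested. Only a few orders of 3 libraries exist, and the share of all genes with each order was not counted.

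**Figure D3:**
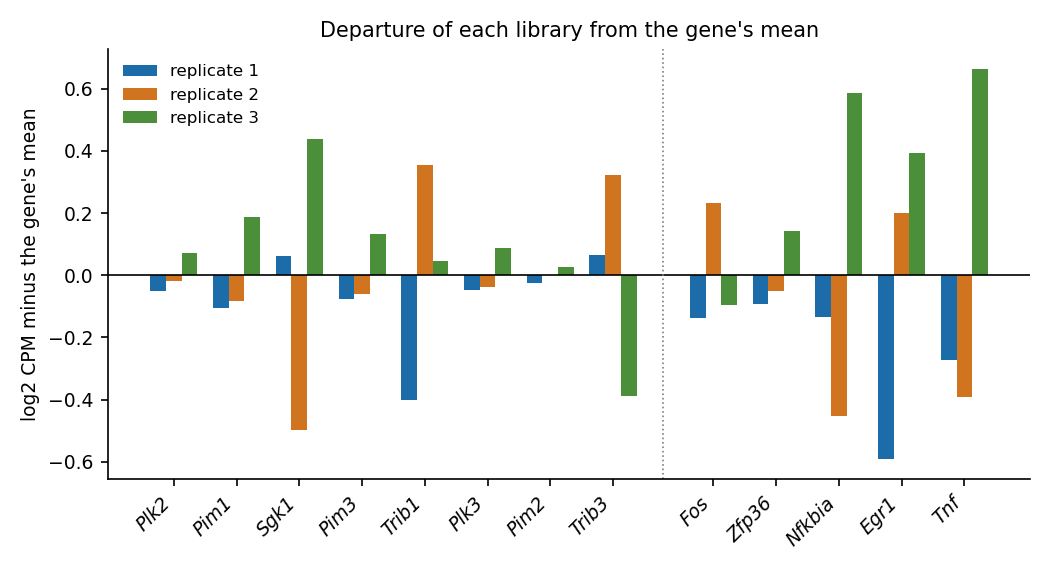
Departure of log2 CPM in each library from that gene's mean, for 8 kinase genes in order of their level (left of the dotted line) and for 5 response genes given for scale (right). Sgk1, Nfkbia and Tnf are lowest in replicate 2 and highest in replicate 3, and Trib1 is lowest in replicate 1 and highest in replicate 2.

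The genes whose 3 departures were nearest to those of each kinase gene were found by Euclidean distance among 9925 protein-coding genes of mean count 100 or more. For Pim1 these were Map3k14, which encodes the NF-κB-inducing kinase, at a distance of 0.003, and the sialyltransferase gene St3gal1 at 0.005. For Plk2 they were the JAK family gene Tyk2 and the peroxisomal import receptor gene Pex5, for Plk3 Decr1 and Rb1, and for Pim3 Susd3 and Lmbr1l. Near neighbours were common for genes of small spread, with 1959 genes within 0.1 of Plk2, 1813 within 0.1 of Plk3 and 384 within 0.1 of Pim1. They were few for Sgk1, with 25, the nearest being the RNA-binding protein gene Mex3b (0.031) and Lrrc14b (0.042). They were fewest for Trib1, with 7, the nearest being the transporter gene Slco2b1 (0.013) and the cyclin L1 gene Ccnl1 (0.047). Among the kinase genes themselves, Plk2 and Plk3 were the closest pair, at 0.025, and Sgk1 and Trib1 the farthest apart, at 1.05. Plk3 rests on 122, 102 and 102 counts, so distances as small as those of Plk3 to Plk2, Decr1 and Rb1 lie within counting error.

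The isoforms behind these levels were read from the transcript tables, made either from alignments or without alignment. Over the 9 genes together, protein-coding transcripts held 92.5 ± 2.26% of the TPM by alignment (SD, n = 3). Plk2 was nearly all on its main transcript, Plk2-201, with 97.0, 94.3 and 97.6% of the gene in replicates 1 to 3. Trib1-201 held 93.5, 84.9 and 94.5% of Trib1, and the rest lay on Trib1-202, which has another 3′ end, at 6.50, 15.1 and 5.48%. Replicate 2 was highest for Trib1-202 in the alignment-free tables too, at 6.92, 16.2 and 5.93%.

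The TPM of Sgk1 lay on transcripts of more than 1 annotated start. Sgk1-201, which begins at position 21994666 of chromosome 10 (mm10), held 75.0, 71.0 and 70.6% of the gene in the alignment-based tables and 65.0, 56.1 and 65.1% in the alignment-free tables. Sgk1-203 and Sgk1-212 both begin upstream, at 21992223, with a first exon of 185 bases that Sgk1-201 lacks, and the tables divided their reads differently. Sgk1-203 had 22.6 ± 1.38% and Sgk1-212 1.28 ± 2.21% by alignment, but 6.88 ± 1.98% and 18.0 ± 4.65% without alignment (SD, n = 3). Summed by start, the upstream site held 21.4, 24.1 and 26.1% by alignment and 25.3, 21.6 and 27.6% without alignment, with means of 23.9 ± 2.34% and 24.8 ± 3.01% (SD, n = 3). In single libraries the alignment-free share was the higher in replicates 1 and 3 and the lower in replicate 2. The promoter windows of both starts are shown because they hold most of the gene's TPM; capitals mark the TATA box, 11 bases before the first start and 28 bases before the second.
Sgk1-201 promoter, chr10:21994416-21994665, + strand: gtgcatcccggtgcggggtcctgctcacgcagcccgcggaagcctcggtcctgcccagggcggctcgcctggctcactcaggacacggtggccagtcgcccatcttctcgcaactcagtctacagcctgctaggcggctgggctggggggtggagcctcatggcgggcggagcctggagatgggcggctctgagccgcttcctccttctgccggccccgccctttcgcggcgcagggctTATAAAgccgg
Sgk1-203 and Sgk1-212 promoter, chr10:21991973-21992222, + strand: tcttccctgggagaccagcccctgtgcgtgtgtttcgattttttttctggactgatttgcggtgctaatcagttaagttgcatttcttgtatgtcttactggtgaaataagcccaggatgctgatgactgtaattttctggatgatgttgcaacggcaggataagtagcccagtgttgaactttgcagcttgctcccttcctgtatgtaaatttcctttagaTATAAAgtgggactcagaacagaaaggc

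The window of Sgk1-201 was 70.4% G or C and that of the upstream start 43.6%. TATAAA was present in 12.4% of the 32851 windows. Of the STAT site, which 7.02% of windows hold, 1 copy stood before another Sgk1 start, at 21882184, whose transcript held at most 0.039% of Sgk1 in any library of either table.

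Pim1 was divided among more transcripts than Plk2. Pim1-201 held 80.2, 76.7 and 74.1% of the gene in the alignment-based tables, and Pim1-207, which starts in a later part of the gene, held 12.7, 9.00 and 5.07%. Pim1-204, annotated as a retained-intron transcript, held 1.63, 6.51 and 16.6% by alignment and 0, 3.64 and 18.0% without alignment, lowest in replicate 1 and highest in replicate 3 in both. A retained-intron share more than 10 percentage points apart between libraries was found in 1 of the 3 kinase genes with such transcripts and 5 TPM or more (Pim1; not Plk2 or Sgk1), against 7.32% of 3591 genes by alignment and 10.9% without alignment. In Plk2 the share was 3.04, 5.72 and 2.41% by alignment, and in Sgk1 0.817, 3.12 and 1.60%. Without alignment it was 4.44, 7.79 and 2.48% in Plk2 and 4.16, 11.8 and 2.35% in Sgk1. The range of Sgk1 was then 9.46 points, just under the limit, and 11.7% of genes had a wider one. The median gene had 1.21, 2.84 and 1.18% by alignment, highest in replicate 2, where the share of Pim1 was not highest.

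The sequence of Pim1-204 limits what its share can show. Of its 1578 bases, 1558 are also in Pim1-201, and its own part is 20 bases of intron just upstream of the second exon. The start of the transcript is shown for this reason, with the 20 intron bases in capitals and the first 20 bases of the exon in lower case (mm10).
Pim1-204, chr17:29491305-29491344, + strand: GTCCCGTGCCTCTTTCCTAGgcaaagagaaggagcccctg

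Pim1-204 also ends at position 29495445 of chromosome 17, 667 bases before the end of Pim1-201 and upstream of the AU-rich nonamers. Its share is thus estimated from few bases of its own and from how reads lie along the shared exons, and reads from an unspliced intron, from the shared exons or from a shorter 3′ end cannot be told apart in these tables. The antisense gene Gm26885 overlaps this part of Pim1 on the other strand, with 25.9, 93.1 and 27.8 counts.

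Pim3 showed the same limit. Pim3-202, annotated as a processed transcript, lies wholly within Pim3-201, with 522 shared bases and 0 of its own. It held 33.2, 19.6 and 25.7% of Pim3 by alignment, but 18.7, 0 and 6.21% without alignment. At the level of the gene, Pim3 was 0.796-fold in the alignment-free tables relative to the alignment-based ones after both were scaled to the protein-coding genes (-0.33 ± 0.02 on the log2 scale, SD, n = 3), lower in 3 of 3 libraries. Sgk1 was 1.22-fold, Pim1 1.12-fold, Plk2 0.977-fold and Trib1 0.968-fold. A difference of more than 1.5-fold between the quantifications was found in 0 of these 5 genes, against 1.83% of 9342 genes of 1 TPM or more on average. Among those genes, 1.81% had a lower ratio than Pim3 and 91.8% had a lower ratio than Sgk1.

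**Figure D4:**
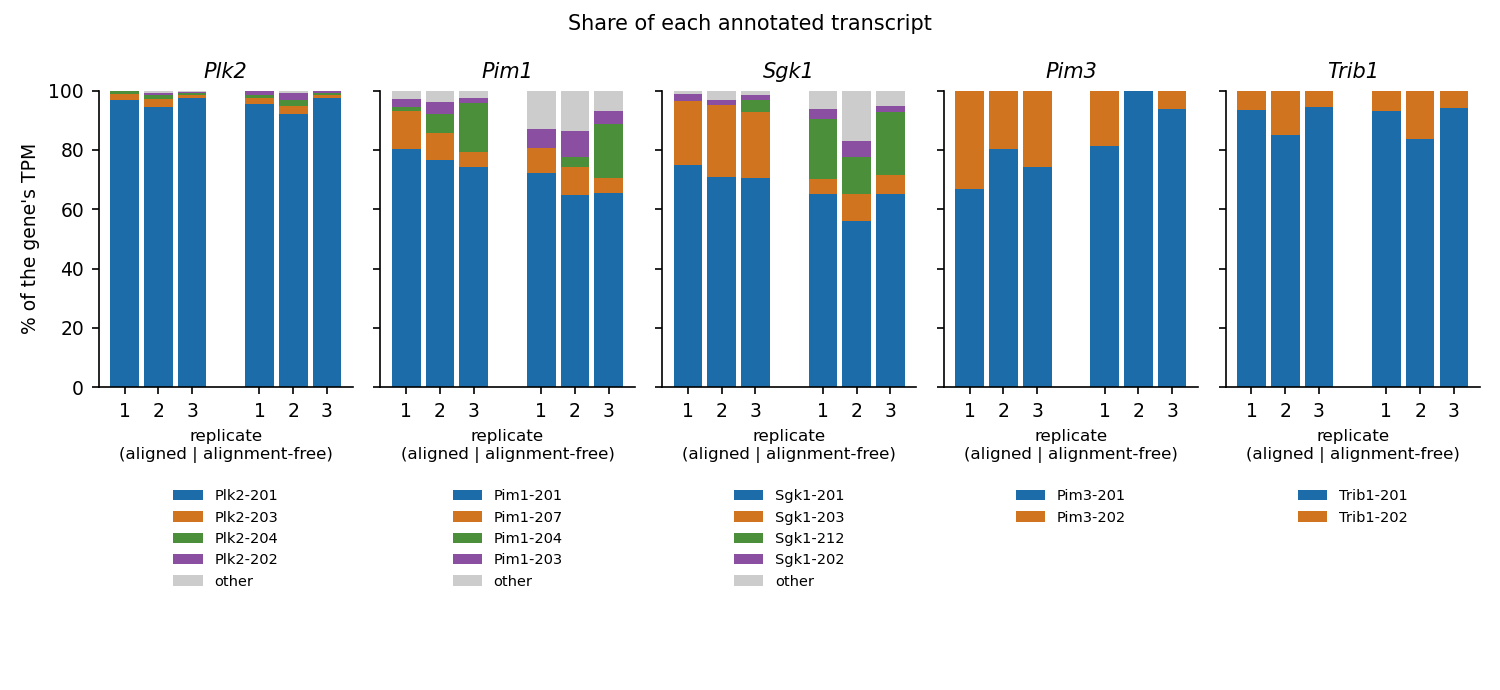
Share of each gene's TPM on its annotated transcripts, with replicates 1 to 3 of the alignment-based tables at left and of the alignment-free tables at right in each panel. Plk2-201 fills at least 92.2% of every Plk2 bar, Pim1-204 is largest in replicate 3, and the tables divide Sgk1-203 and Sgk1-212 differently while Sgk1-201 stays the largest part.

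In each list of genes known to act with these kinases, most genes were detected, against 41.3% of the 22015 nuclear protein-coding genes. The lists were chosen with earlier results of these data known, so their counts are descriptions and no result about these partners. Of 10 inducers of the PIM genes, 9 were detected at 1 TPM or more in every library (median 13.7 ± 2.94 TPM, SD, n = 3), among them Jak1 (36.9 ± 7.59 TPM) and Rela (19.3 ± 2.95), while the transcription factor Klf5 was at 0.01 TPM. Of 14 substrates and partners of PIM kinases, 12 were detected, led by the cell cycle inhibitor Cdkn1a (117 ± 38.0 TPM), the translation factor Eif4b (49.8 ± 10.4) and the chemokine receptor Cxcr4 (42.6 ± 13.3). The phosphatase Cdc25c, which acts at entry into mitosis, was at 0.18 ± 0.12 TPM. Of 12 genes of the PLK2 and PLK3 pathway, 9 were detected, led by Cdkn1a, Gadd45a (44.9 ± 0.63 TPM) and Mdm2 (24.3 ± 3.73), while the checkpoint kinase Chek1 was at 0.33 ± 0.13 TPM.

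For SGK1, 13 of 18 genes of its activation and substrates were detected, with a median of 3.65 ± 0.58 TPM. The glucocorticoid-induced Tsc22d3 (26.3 ± 3.78 TPM), the transcription factor Foxo3 (22.1 ± 3.29) and the ubiquitin ligase Nedd4l (20.97 ± 2.62) were highest, and the sodium channel subunit Scnn1a (0.39 ± 0.035) and Ndrg2 (0.01 ± 0.01) were below 1 TPM in all libraries. All 13 partners of the Tribbles proteins were detected (median 17.7 ± 3.16 TPM). The kinase Akt1 had 54.7 ± 5.98 TPM, and the targets of the TRIB1 and COP1 complex, Cebpa and its relative Cebpb, had 43.4 ± 5.04 and 36.3 ± 9.82 TPM. Cop1 itself had 15.2 ± 3.65 TPM, above Trib1 in all 3 libraries.

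Of 14 genes of the integrated stress response that induces Trib3, 11 were detected. Ppp1r15a (220.1 ± 135 TPM), Atf3 (113 ± 31.0) and the gene of CHOP, Ddit3 (33.2 ± 2.26), were the highest, while Vldlr (0.033 ± 0.021) and Chac1 (0.083 ± 0.015) were, like Trib3, below 1 TPM in every library. For scale, Fos had 425 ± 101, Zfp36 399.7 ± 95.4, Nfkbia 259.7 ± 139, Egr1 212 ± 93.7 and Tnf 208 ± 123 TPM, all above Plk2 in every library.

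**Figure D5:**
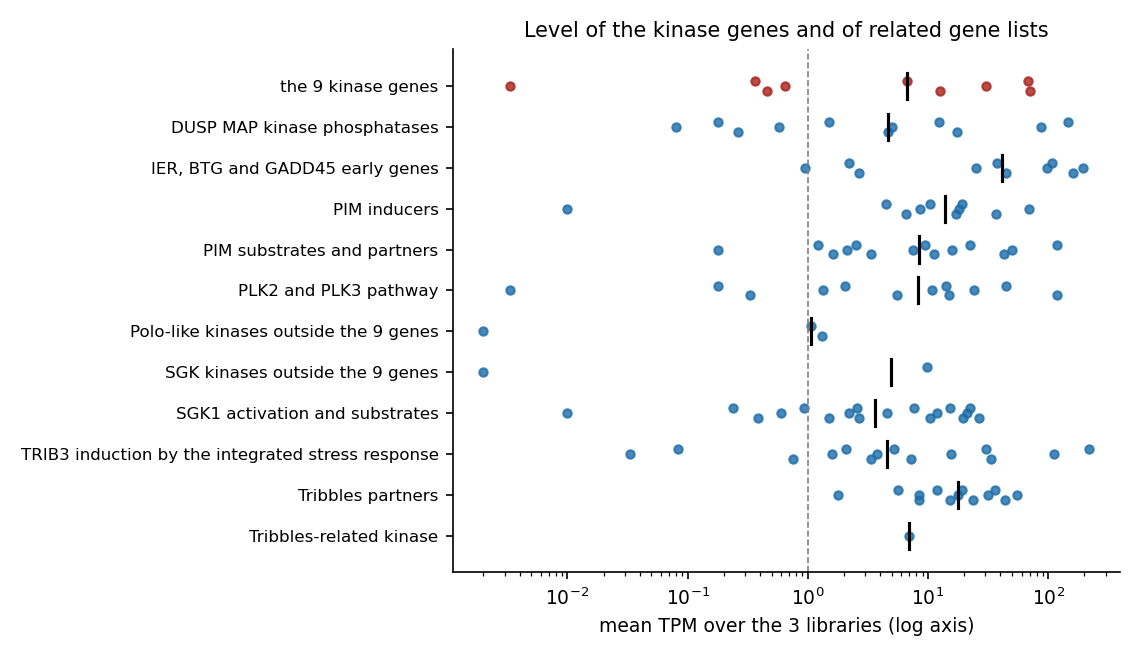
Mean level over 3 libraries in TPM on a log axis for the 9 kinase genes (red) and for related gene lists (blue), 1 point per gene with a black bar at the median of the points; the dashed line marks 1 TPM, and genes at 0 are drawn at the left end. The kinase genes run from Trib2 near 0 to Plk2 at 70.2 TPM, and the 13 Tribbles partners all lie to the right of the dashed line.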

How the data were processed

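Total RNA after ribosomal RNA depletion was measured in 3 libraries of a single group. Per the file headers, the authors deposited expected counts and TPM per gene and transcript from transcriptome alignments, in the columns RSEM writes, and estimated counts and TPM per transcript made from the reads, in the columns kallisto writes; assembly mm10 and annotation GENCODE M21 are named in the deposited text files. The deposited bounds of the TPM credibility interval, treated as a score, are the quantifier's own. For the aligner, the versions and the strandedness, the sources used here give nothing.

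The 9 genes and the gene lists were chosen with earlier results of these data known. Named are all 9 genes, the 2 nearest genes to each of mean count 100 or more, per list the 3 genes of highest mean TPM and up to 2 below 1 TPM in all libraries, and 5 genes for scale; not every selected gene is printed. Expected counts were rounded to whole numbers, entered edgeR 4.0.16 (R 4.3.3), where filterByExpr removed low genes and TMM factors set the scale (prior count 2), and the coefficient of variation was fitted with an intercept alone. A test between groups cannot be made on 1 group. Of the counts, 0.186, 0.167 and 0.0395% lay on rows that name no gene and were left out. Intervals and floors of 3 counts reflect counting error alone, because PCR copies were not marked by molecular identifiers. For the comparison of quantifications, TPM was rescaled to the nuclear protein-coding genes. The steps on counts were tested on simulated data. Promoter sequences are from RefSeq (GRCm38.p6) and transcripts from GENCODE M21. DESeq2 1.42.0 size factors, library size, other minimums, pseudocounts and prior counts, the alignment-free tables, protein-coding transcripts alone and each replicate left out in turn were tried as alternatives. Python 3.11.15 with pandas 2.3.3, numpy 2.4.6 and matplotlib 3.10.9 was used.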

Additional observations from a re-analysis of the deposited data

How the results depend on the processing

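The number of kinase genes detected in every library was 5 of 9 and became 8 when TPM was rescaled to the nuclear protein-coding genes, which raises all levels and added Plk3, Pim2 and Trib3; at 0.5 and 5 TPM it was 6 and 4, while 47.6, 44.8 and 24.6% of all protein-coding genes were detected under these 3 settings, and with each replicate left out it was 5. Their median level was 6.72 TPM, 26.8 after that rescaling, 1.92 in the alignment-free tables, whose nuclear protein-coding genes took 6.27 to 10.7% of the TPM, and 30.3 over the members of 1 TPM or more on average. With a replicate left out it was 6.08 to 7.92. Of 8 neighbouring pairs in the order, 6 were apart, and 6 to 7 with a replicate left out. The number was also 6 in the alignment-free tables, but there Pim1 stood above Plk2 and Pim2 above Plk3 on average. No kinase gene passed 2-fold between replicates, except that 2 values did so without a count minimum, where Trib2 entered with its 2 counts. Over all genes, the calls in replicate 2 over 1, 3 over 1 and 3 over 2 were 152, 53 and 292 of 10345, against 506, 163 and 760 of 12364 at a mean count of 20 or more and 236, 60 and 386 of 10726 in the alignment-free counts. Without a count minimum they were 3144, 1890 and 4080 of 55536. The median SD of log2 CPM was 0.139 and ran from 0.016 to 0.176 with a replicate left out, the lowest being without replicate 3. The share of protein-coding transcripts was 92.5%, 89.8% in the alignment-free tables and 91.3 to 93.6% with a replicate left out. No kinase gene passed 1.5-fold between the quantifications on the mean log2 ratio; with the ratio of mean levels and no minimum, chosen after seeing the data, 1 did, Pim2, at 1.5003-fold, with 1.55-, 1.64- and 1.30-fold in replicates 1 to 3. Of the single genes, 2 levels (Pim2 and Pim3) moved by more than their own SD in the alignment-free tables. The spreads of all genes were held to 1 common limit, 0.090, the SD of the median spreads with each replicate left out. Past that limit, 2 spreads (Pim2 and Trib3) moved in the alignment-free tables, and 8 of 24 did when a replicate was left out. The cause was not tested. Depth limits Plk3, Pim2 and Trib3, with 34 to 122 counts in a library, and Trib2. No paired analysis was possible because there is a single group.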
